A study of Mus musculus with 127 samples.

Results

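The 10 genes described here are expressed at high level in the choroid plexus, and they were followed through every cortex library of a study of Chd8 mutant mice. They are Ttr, Aqp1, Kcnj13, Slc4a5, Clic6, Folr1, Kl, Enpp2, Sostdc1 and Otx2. They were chosen as known choroid plexus genes, with earlier results of these data known, and all 10 were found among the 54838 genes of the count tables. The study profiled adult cortex by bulk poly(A) RNA-seq to describe expression in the mutants, in whole tissue and in cell fractions. Chd8 encodes a chromatin remodeller, and people with inactivating mutations in the gene often have autism. All mice were 60 days old. In the germline line, heterozygotes (HET) carried a 5-bp deletion in 1 Chd8 allele (Chd8+/5bpdel) and were set against wild-type (WT) mice, with 16 HET and 15 WT whole-cortex libraries, 9 HET and 12 WT nuclear, 7 HET and 11 WT synaptic, and 7 HET and 5 WT cytosolic libraries. The conditional line used floxed Chd8, recombined by Camk2a-CRE, whose promoter is active in forebrain excitatory neurons. Every mouse of its fraction groups is labelled as carrying Camk2a-CRE. By their titles, HOM mice of these groups were Chd8flox/flox, HET mice Chd8+/flox and WT mice Chd8+/+. There were 3 HOM, 6 HET and 4 WT nuclear and 5 HOM, 5 HET and 4 WT synaptic libraries. Conditional whole cortex had 6 Cre-positive +/flox and 8 Cre-negative +/flox libraries by their titles.

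The choroid plexus is a folded epithelium that hangs in the brain ventricles and secretes cerebrospinal fluid. It is not part of the cortex, but it lies close to the inner face of the cortical wall. Its cells are packed with transcripts for carriers, channels and transporters, of which Ttr, the thyroid hormone carrier transthyretin, is the most abundant, and most of the genes named here are low in cortical cells. In bulk libraries such as these, fewer cells of a type and less RNA per cell cannot be told apart.

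Of the 10 genes, 5 had an entry in the table of RefSeq promoters (GRCm38.p6; 250 bases before to 50 after each start), namely Aqp1, Kcnj13, Slc4a5, Kl and Otx2. Otx2, a homeodomain transcription factor needed for choroid plexus development, is the regulator on the list, and TAATCC is the core that it and related homeodomain proteins bind. On the other strand this core reads GGATTA. These letters, searched on both strands, stood in 2320 of 32851 promoters of that length (7.06%). Among the 5 genes they stood in 1 of the 4 entries of Otx2 itself and in none of the other entries. The Otx2 entry with the match is shown with that of Aqp1, the gene with the firmest genotype difference below. Capitals mark the match, which lies 211 bases before the start, and the Aqp1 window holds no match.
Otx2, chr14:48665060-48665359, minus strand: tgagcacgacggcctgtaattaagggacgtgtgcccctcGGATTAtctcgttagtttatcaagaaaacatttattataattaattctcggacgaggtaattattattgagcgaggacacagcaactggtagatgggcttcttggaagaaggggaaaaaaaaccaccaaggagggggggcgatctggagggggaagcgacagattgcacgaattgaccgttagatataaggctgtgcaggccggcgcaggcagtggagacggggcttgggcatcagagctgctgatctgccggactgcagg
Aqp1, chr6:55336049-55336348, plus strand: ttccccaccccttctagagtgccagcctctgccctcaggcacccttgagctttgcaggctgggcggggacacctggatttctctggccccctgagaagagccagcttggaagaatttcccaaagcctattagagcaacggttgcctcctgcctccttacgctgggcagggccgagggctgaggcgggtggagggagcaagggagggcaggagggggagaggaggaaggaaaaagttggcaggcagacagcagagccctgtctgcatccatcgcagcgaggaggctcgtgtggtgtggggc

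Depth ran from 19.002 to 30.509 M counts in germline cortex libraries, from 98.1 to 134.6 M in conditional cortex and from 23.2 to 56.6 M in the fractions. Levels are given as CPM, a gene's count scaled to the total of all gene counts in its library, so 3 counts, the limit that a count of 0 allows, stood at 0.0983 to 0.158 CPM in germline cortex. Such limits cover counting error only. Chd8 itself was 41.7 to 81.3 CPM (median 61.7) in HET cortex and 66.0 to 112 CPM (median 99.8) in WT cortex, a log2 fold change of -0.58 (SE 0.0755, adjusted p = 7.89e-05 by edgeR's quasi-likelihood test). It was not called in any other genotype comparison, and in germline nuclei it was 94.3 to 147 CPM (median 114.0) in HET and 92.0 to 131 CPM (median 117.8) in WT. Germline synaptic libraries had 25.6 to 38.8 CPM of Chd8 (median 33.8) in HET and 36.2 to 147.7 CPM (median 59.2) in WT. Cytosolic libraries had 55.5 to 77.05 CPM (median 65.1) in HET and 77.6 to 90.1 CPM (median 88.7) in WT, without overlap. Conditional HOM male replicate 1 had 61.3 CPM of Chd8 in its synaptic library, inside the WT range of 51.8 to 67.8 CPM. The 10 neuronal genes used as a check of the tissue summed to 9391 to 10820 CPM in these libraries. In 2 of the germline synaptic libraries, WT male replicates 1 and 2, the nuclear RNA Malat1 was 857 and 1221 CPM against a synaptic median of 79.5 CPM, and 1 germline nuclear library did not match its group's sex label. Conditional HET male replicate 1, labelled as carrying Camk2a-CRE, had 0 reads of Cre in both of its libraries, and the nuclear library of 1 conditional animal was labelled HET while its synaptic library was labelled HOM.

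In germline whole cortex Ttr was at least 50 CPM in 4 WT libraries and in no HET library, and 1 of these, WT female replicate 6, was the highest library for all 10 genes. Ttr, which carries thyroid hormone in cerebrospinal fluid and blood, was 1.52 to 34.5 CPM (median 5.55) in the 16 HET libraries and 3.60 to 451 CPM (median 11.8) in the 15 WT libraries. WT female replicate 6 (451 CPM), WT male replicate 7 (254 CPM), WT male replicate 3 (194 CPM) and WT female replicate 7 (85.9 CPM) stood above every HET library, and the other 11 WT libraries overlapped the HET range. The HET library with most Ttr was HET female replicate 8. The fitted log2 fold change of Ttr was -2.99 (SE 0.700, adjusted p = 0.0488), with sex and batch in the fit.

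Aqp1, the water channel through which the epithelium passes fluid, was 0 to 1.16 CPM (median 0.272; 0 to 34 counts) in HET and 0.197 to 6.24 CPM (median 0.915; 6 to 128 counts) in WT cortex. In all, 7 WT libraries stood above every HET library and 4 HET libraries stood below every WT library. Those 7 were the same 4 libraries, at 6.24 (WT female replicate 6), 3.70 (WT male replicate 7), 2.00 (WT male replicate 3) and 1.29 CPM (WT female replicate 7), and WT male replicate 6 (1.91 CPM), WT female replicate 5 (1.52 CPM) and WT male replicate 8 (1.21 CPM), whose Ttr was 8.28, 16.5 and 13.2 CPM. The log2 fold change of Aqp1 was -1.93 (SE 0.366, adjusted p = 0.0100). Aqp1 is also made by red blood cells, and the summed level of haemoglobin genes was 72.7 to 220.5 CPM (median 126.6) in HET and 74.3 to 240.1 CPM (median 122.7) in WT cortex, with the highest sum in WT male replicate 6. Its part in the Aqp1 difference was not tested.

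**Figure D1:**
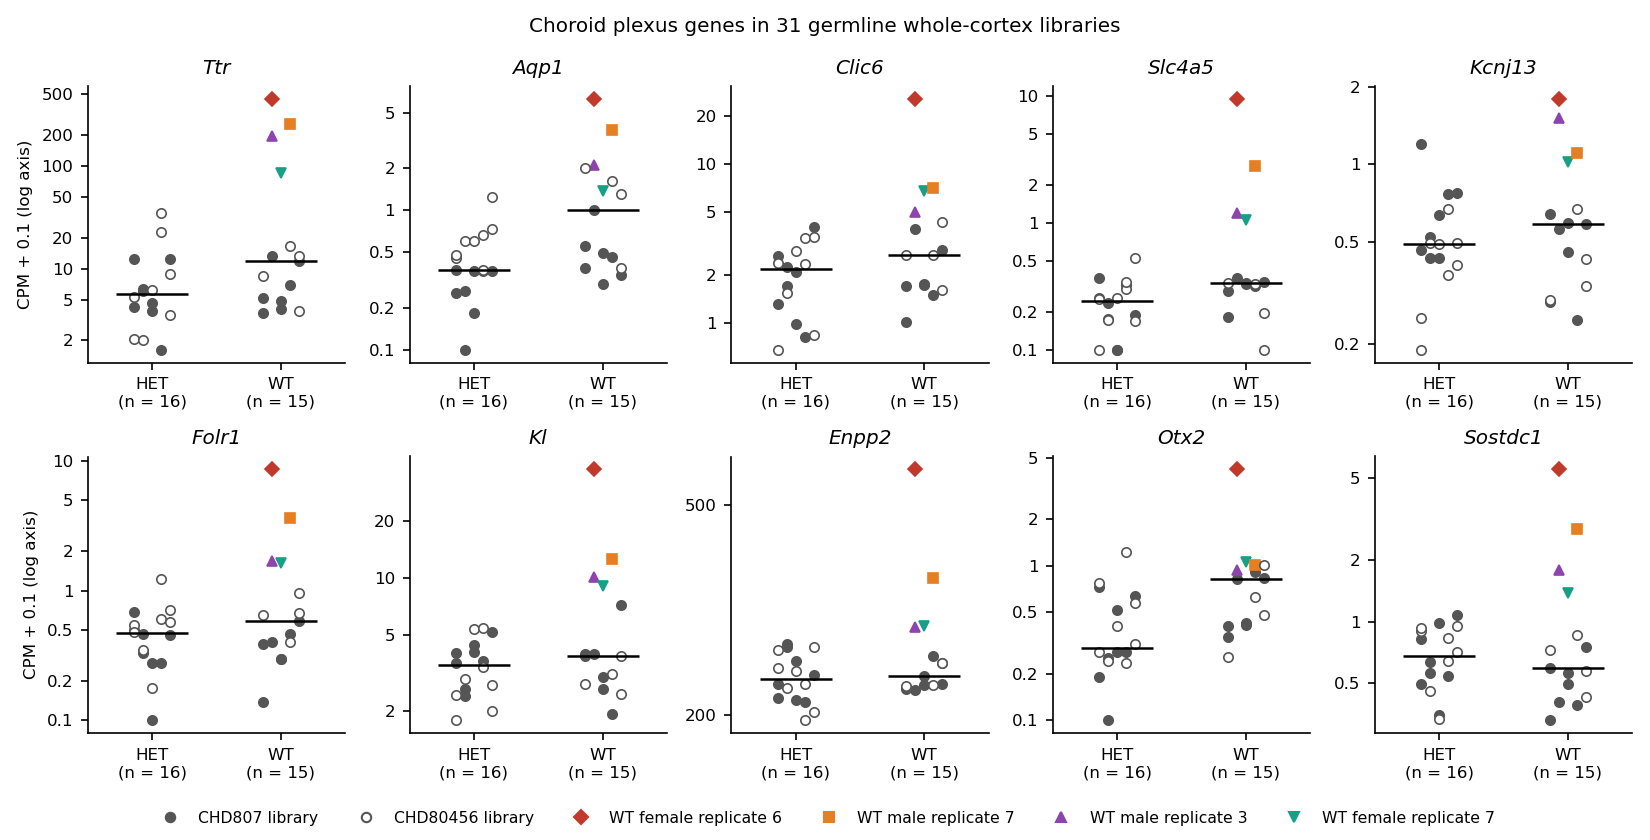
Level of each choroid plexus gene (CPM + 0.1, log axis) in 16 HET and 15 WT germline cortex libraries, 1 point a library, with the group median as a line, batches by open and filled circles, and the 4 WT libraries with most Ttr in colour. WT female replicate 6 is the highest library for all 10 genes, and for Ttr 11 of the 15 WT libraries overlap the HET range.

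Of the other transporters, Clic6, a chloride intracellular channel protein, was 0.578 to 3.93 CPM (median 2.07) in HET and 0.910 to 25.5 CPM (median 2.59) in WT cortex. Slc4a5, an apical sodium bicarbonate cotransporter, was 0 to 0.428 CPM (median 0.142) in HET and 0 to 9.45 CPM (median 0.234) in WT cortex, and it was too low to pass the filter on counts. Kcnj13, the potassium channel Kir7.1, was 0.0890 to 1.10 CPM (median 0.391) in HET and 0.147 to 1.71 CPM (median 0.487) in WT cortex. The groups overlapped, and 5 (Clic6), 4 (Slc4a5) and 2 (Kcnj13) WT libraries stood above every HET library. Kcnj13 lies within Gigyf2 on the opposite strand, and no strand option is stated for the counting, so reads of the pair cannot be told apart.

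Among the receptors, Folr1, the folate receptor that moves folate into cerebrospinal fluid, was 0 to 1.14 CPM (median 0.371) in HET and 0.0383 to 8.52 CPM (median 0.487) in WT cortex. Kl (Klotho), a co-receptor for the hormone FGF23, was 1.69 to 5.35 CPM (median 3.40) in HET and 1.84 to 37.3 CPM (median 3.81) in WT cortex. For Folr1 4 and for Kl 5 WT libraries stood above all HET libraries, and the rest overlapped.

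Among the secreted proteins, Enpp2 (autotaxin), the enzyme that makes lysophosphatidic acid, was 195 to 272 CPM (median 233.5) in HET and 223 to 584 CPM (median 237) in WT cortex. Enpp2 is also made by oligodendrocytes, so it has a high level in every cortex library: per kb of exon its median was 41.0 CPM, against 5.28 CPM per kb for Ttr and 0.0350 to 0.572 CPM per kb for the other 8 genes. Sostdc1, a secreted antagonist of BMP and Wnt signals, was 0.233 to 0.982 CPM (median 0.577) in HET and 0.230 to 5.46 CPM (median 0.496) in WT cortex, with a higher median in HET libraries. Otx2 was 0 to 1.14 CPM (median 0.196) in HET and 0.156 to 4.14 CPM (median 0.725) in WT cortex, and 1 WT library stood above all HET libraries while 5 HET libraries stood below all WT libraries. Its exons overlap those of Gm49154 on the same strand and of Otx2os1 on the other.

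Over the 9 genes that passed the filter, 2 fell in HET cortex (Aqp1 and Ttr) and 0 rose, where 0.146% of the 17074 genes tested fell, 0.187% rose and 0.334% passed in either direction. All 9 had a log2 fold change below 0, with a median of -1.05, while the median over all genes was -0.00. Without adjustment, 6 of the 9 had p under 0.05, as did 9.25% of all genes tested. The list was chosen with earlier results of these data known, so its shares beside those of all genes are a description. Those that did not pass were Folr1 (log2 fold change -1.54, SE 0.476, adjusted p = 0.196), Otx2 (-1.31, SE 0.386, adjusted p = 0.168), Clic6 (-1.05, SE 0.346, adjusted p = 0.245), Kl (-0.97, SE 0.336, adjusted p = 0.292), Sostdc1 (-0.73, SE 0.363, adjusted p = 0.544), Kcnj13 (-0.49, SE 0.321, adjusted p = 0.669) and Enpp2 (-0.21, SE 0.105, adjusted p = 0.544).

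The call of Ttr rested on single libraries. It was kept in 10 of the 31 fits that left out 1 library each, and it was lost without any 1 of the 16 HET libraries, WT male replicates 3, 6 and 7 or WT female replicates 6 and 7. Without WT male replicate 3 its log2 fold change was -2.10 (adjusted p = 0.244) and without WT female replicate 6 it was -2.27 (adjusted p = 0.222). Aqp1 was called in all 31 of these fits, with log2 fold changes of -2.04 to -1.58 and adjusted p of 0.00265 to 0.0450. Without the 4 WT libraries with at least 50 CPM of Ttr, Ttr had a log2 fold change of -0.22 (SE 0.358, adjusted p = 0.837), a value that leaving out the highest WT libraries brings towards 0 by construction. In the same fit Aqp1 had -1.20 (SE 0.306, adjusted p = 0.142), Otx2 -0.71 (SE 0.396, adjusted p = 0.618), Kl 0.02, Enpp2 0.03 and Sostdc1 0.36, and 0 of the 9 genes were called.

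Adding the mean log2 level of 21 other choroid plexus genes to the fit brought most of the differences near 0. Ttr then had a log2 fold change of -0.22 (SE 0.295, adjusted p = 0.836), Folr1 -0.06, Kl -0.01, Clic6 -0.19, Enpp2 0.02, Kcnj13 0.22 and Sostdc1 0.31. Aqp1 then had -1.08 (SE 0.2996, adjusted p = 0.183), against -1.93 without this term, and Otx2 had -0.61 (SE 0.351, adjusted p = 0.644), against -1.31. The call of Aqp1 was lost, so that 0 of the 9 genes were called and 1 had an unadjusted p under 0.05. With Ttr itself as the covariate, Aqp1 had a log2 fold change of -1.03 (SE 0.341, adjusted p = 0.233). The 21 genes were highest in the WT libraries with at least 50 CPM of Ttr, and Ttr is itself on the list. Either term takes up a difference that choroid plexus genes share, whatever its cause. These fits therefore cannot tell genotype from the amount of choroid plexus tissue.

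**Figure D2:**
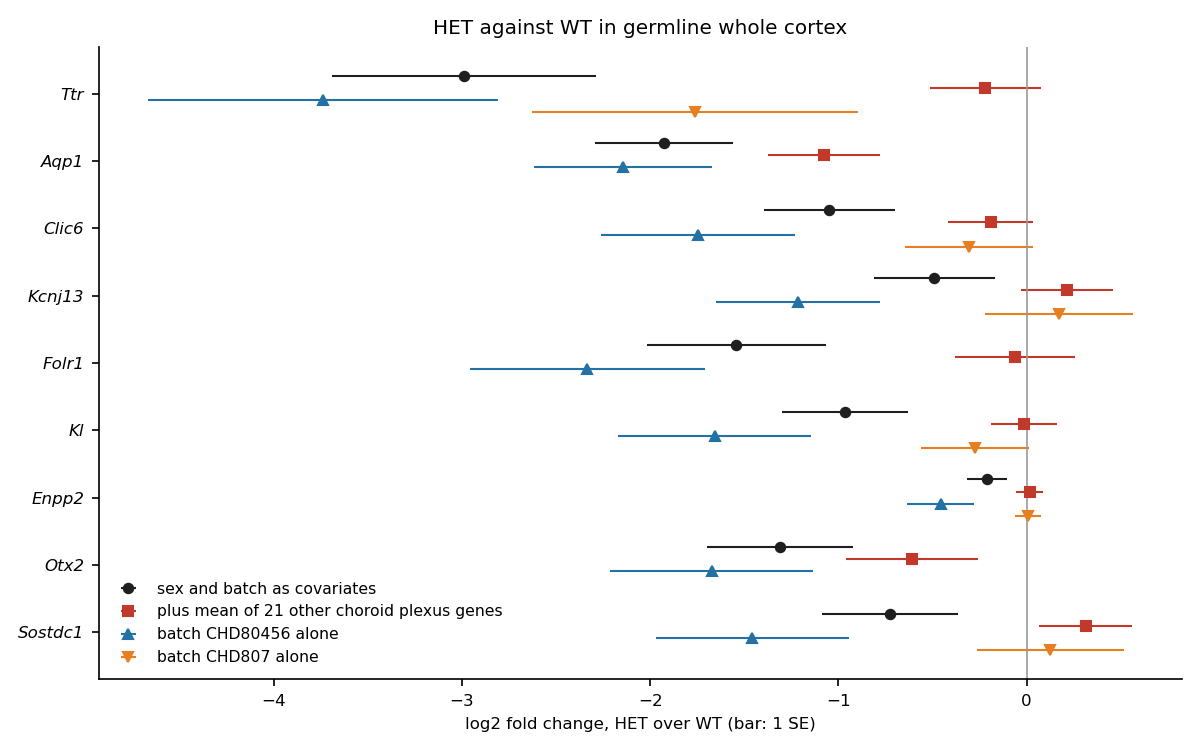
Log2 fold change of HET over WT in germline cortex (points, bars of 1 SE) for the 9 choroid plexus genes tested, under 4 fits that are told apart by colour and symbol. With the mean of the 21 other choroid plexus genes in the fit, Ttr is at -0.22, against -2.99 without it, and Aqp1 is at -1.08, against -1.93 without it. This term takes up any difference that choroid plexus genes share, whatever its cause.

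Other choroid plexus genes were highest in the same 4 libraries. Their summed level was 39.8 to 54.2 CPM in HET and 39.2 to 154 CPM in WT cortex, with WT female replicate 6 (154 CPM), WT male replicate 7 (81.6 CPM), WT male replicate 3 (68.9 CPM) and WT female replicate 7 (63.1 CPM) at the top. Of the 12 of these 21 genes that were tested, 10 had a log2 fold change below 0, with a median of -0.39, and edgeR called 0 of them. Prlr, the prolactin receptor, had -1.41 (SE 0.385, adjusted p = 0.124) and Car12, a carbonic anhydrase, -0.48 (SE 0.154, adjusted p = 0.216). The genes whose levels followed the mean of the 10 most closely over the 31 libraries, of 14962 compared, were Drc7 (Pearson r = 0.775), 1500015O10Rik (Ecrg4; 0.719), Slc16a8 (0.691), Ip6k1 (0.682), Cables1 (0.679), Car12 (0.672), Spef2 (0.665), Slc2a12 (0.661), Slc31a1 (0.651) and Lbp (0.644). Without WT female replicate 6 and WT male replicate 7, the 2 libraries farthest from the median, these r were 0.311 to 0.678, highest for Cables1. These correlations share libraries, depth and tissue pieces, and 6 of the 8 other choroid plexus genes compared were among the 100 highest.

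Markers of neighbouring tissues were partly high in the same libraries. In the order WT female replicate 6, WT male replicate 7, WT male replicate 3 and WT female replicate 7, the 10 ependymal genes summed to 37.0, 27.9, 38.8 and 30.4 CPM, of which the first and the third were the highest of the 31 libraries (all libraries 17.1 to 38.8 CPM). Striatal genes summed to 271 to 805 CPM in them, inside the range of 243 to 1173 CPM over all libraries. Oligodendrocyte genes summed to 7105, 4979, 4794 and 5294 CPM, against 3332 to 8175 CPM over all libraries, and meningeal genes to 145, 148, 139.6 and 111 CPM, against 86.8 to 218 CPM.

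Between genotypes, edgeR called 0 genes of any of the other marker lists, and the median log2 fold changes were -0.21 for ependyma (8 of 9 below 0; Tmem212 -0.49, Tekt1 -0.33), 0.25 for meninges (14 of 14 above 0; Col1a1 0.34, Slc6a13 0.27) and -0.33 for striatum (13 of 13 below 0; Pde10a -0.34, Six3 -0.84). They were 0.02 for hippocampus (5 of 10 above 0; Spink8 -0.86, Tdo2 -0.46), -0.03 for thalamus (5 of 8 below 0; Ramp3 0.15, Slc17a6 0.11), -0.04 for oligodendrocytes (11 of 12 below 0; Mobp -0.15, Cldn11 -0.10) and -0.06 for endothelium (8 of 12 below 0; Slc16a1 0.08, Abcb1a -0.15). They were -0.32 for nuclear-retained RNA (10 of 10 below 0; Rian -0.19, Neat1 -0.41) and 0.04 for neurons (10 of 10 above 0; Snap25 0.06, Tbr1 0.06). The part of these tissues in the choroid plexus differences was not tested.

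The germline cortex libraries carry the batch labels CHD80456 (8 HET, 7 WT) and CHD807 (8 HET, 8 WT). Aqp1 was 0.271 to 6.24 CPM (median 0.641) in CHD80456 and 0 to 2.00 CPM (median 0.268) in CHD807 libraries, a log2 difference of 1.81 (SE 0.365, adjusted p = 0.000912). Folr1 was 0.0778 to 8.52 CPM (median 0.547) in CHD80456 and 0 to 1.58 CPM (median 0.297) in CHD807 libraries, a log2 difference of 1.64 (SE 0.480, adjusted p = 0.0160). These 2 of 9 genes passed, both higher in CHD80456, where 11% of all genes tested passed as higher, 7.27% as lower and 18.2% in either direction, so the share is near the background. Within CHD80456 alone, Ttr had a log2 fold change of HET over WT of -3.74 (adjusted p = 0.938) and Aqp1 of -2.14 (adjusted p = 0.892). Within CHD807 alone, Ttr had -1.76 (adjusted p = 0.396), Enpp2 0.01 and Sostdc1 0.13, and Aqp1 was too low to be tested. Neither batch by itself called any of the genes with edgeR, with 9 of 9 genes at an unadjusted p under 0.05 in CHD80456, where 3.65% of all genes were, and 0 of 6 in CHD807, where 12.6% were. The difference between batches in the genotype effect was also not called for any gene (0 of 9, and 0% of all genes tested), although all 9 of these differences were below 0 (median -1.31) and 5 had an unadjusted p under 0.05 by edgeR (2.9% of all genes) and 5 by DESeq2 (3.08%).

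In the germline fractions the high libraries of whole cortex had no counterpart in nuclei or synaptosomes. In nuclear libraries Ttr was 0.262 to 3.40 CPM (median 1.29) in HET and 0.440 to 3.62 CPM (median 1.18) in WT. In synaptic libraries it was 0.421 to 3.73 CPM (median 2.78) in HET and 0.978 to 5.72 CPM (median 2.23) in WT. The groups overlapped in both fractions, and the log2 fold changes of Ttr were -0.13 (SE 0.385, adjusted p = 0.974) and -0.36 (SE 0.454, adjusted p = 0.810). Aqp1 was 0.262 to 1.37 CPM (median 0.630) in HET and 0.494 to 1.54 CPM (median 0.990) in WT nuclei, with a log2 fold change of -0.38 (SE 0.294, adjusted p = 0.859). In the synaptic fraction Aqp1 was 0.125 to 0.359 CPM (median 0.295) in HET and 0.0578 to 0.827 CPM (median 0.298) in WT, with a log2 fold change of -0.09 (SE 0.432, adjusted p = 0.953). None of these differences was larger than the spread between libraries.

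No gene of the list was called in either of these fractions. In nuclei 0 of 8 passed by edgeR and 0 by DESeq2, and 0 of the 8 had an unadjusted p under 0.05, where 0.00502% of all genes tested were higher, 0.01% lower and so 0.0151% passed. In the synaptic fraction 0 of 7 passed by edgeR and 0 by DESeq2, and 1 of the 7 had an unadjusted p under 0.05, where 0% of all genes passed and 11% had such a p. That gene was Enpp2, at 276 to 439 CPM (mean 376.9 ± 62.4, SD, n = 7) in HET and 191 to 397 CPM (mean 287.3 ± 60.1, SD, n = 11) in WT synaptic libraries, which overlapped over all batches. Its log2 fold change was 0.34 (SE 0.112, adjusted p = 0.334), with sex and batch group in the fit. With batch labels 05, Enpp2 was 388 to 439 CPM in HET (n = 5) and 278 to 327 CPM in WT (n = 3). With labels 03-04 it was 276 CPM in HET (n = 1) and 191 to 243.5 CPM in WT (n = 4). With labels 06-07 it was 304 CPM in HET (n = 1) and 290.5 to 397 CPM in WT (n = 4). With voom and sample weights Enpp2 passed, at 0.27 (SE 0.06998, adjusted p = 0.0367), in a fit that called 3.27% of all genes.

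The cytosolic fraction again held high WT libraries. Ttr was 1.24 to 6.74 CPM (median 3.32) in the 7 HET libraries, against 281 CPM in WT female replicate 3, 65.5 CPM in WT male replicate 4, and 3.96, 4.94 and 5.09 CPM in the other 3 WT libraries. WT female replicate 3 was the highest library for all 10 genes, with 23 CPM of Clic6, 16.8 CPM of Kl, 174 CPM of Enpp2, 4.17 CPM of Otx2, 2.92 CPM of Slc4a5 and 1.65 CPM of Aqp1. Clic6 was 1.15 to 3.83 CPM (median 2.95) in HET and 3.07 to 23 CPM (median 5.22) in WT libraries, and Otx2 was 0.114 to 0.707 CPM (median 0.486) in HET and 0.535 to 4.17 CPM (median 0.714) in WT libraries, both with some overlap.

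The cytosolic log2 fold changes of HET over WT were -4.49 for Ttr (SE 0.858, adjusted p = 0.920), -1.74 for Clic6 (SE 0.401), -1.43 for Kl (SE 0.394), -1.87 for Otx2 (SE 0.461) and -1.39 for Sostdc1 (SE 0.475). These 5 of the 7 genes tested had an unadjusted p under 0.05, as did 3.28% of all genes, but edgeR called 0 of them after adjustment, as it did 0% of all genes. DESeq2 called 1, Ttr (0.0217% of all genes), and the fit with no filter on low counts called 5 of 10 (0.0631% of all genes). Without WT female replicate 3 and WT male replicate 4, which leaves 3 WT libraries, the log2 fold change of Ttr was -0.64 (SE 0.448, adjusted p = 0.647), that of Clic6 -0.71 (SE 0.346, adjusted p = 0.576) and that of Kl -0.11 (SE 0.228, adjusted p = 0.892). Both libraries were left out for their high Ttr, which brings the value of Ttr towards 0 by construction.

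In conditional whole cortex Ttr was high in most libraries of both groups. Ttr was 21.8 to 559.7 CPM (median 110.1) in the 6 Cre-positive +/flox libraries and 16.9 to 871 CPM (median 230.1) in the 8 Cre-negative +/flox libraries. It was at least 50 CPM in 5 of the 6 Cre-positive and 5 of the 8 Cre-negative libraries, and the ranges overlapped. Kl was 2.94 to 17.4 CPM (median 4.95) in Cre-positive and 3.62 to 30.3 CPM (median 5.89) in Cre-negative libraries, and Aqp1 was 0.471 to 4.99 CPM (median 1.36) in Cre-positive and 0.520 to 5.21 CPM (median 1.79) in Cre-negative libraries. Of the 10 genes 0 passed by edgeR and 0 by DESeq2, and 0 had an unadjusted p under 0.05, where 0% of all genes passed. The log2 fold change of Ttr was -0.83 (SE 0.844, adjusted p = 0.882). Over these 14 libraries the Spearman rank correlation of the other 9 genes with Ttr was 0.688 for Kl to 0.974 for Folr1, as a description of libraries that share tissue and depth.

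**Figure D3:**
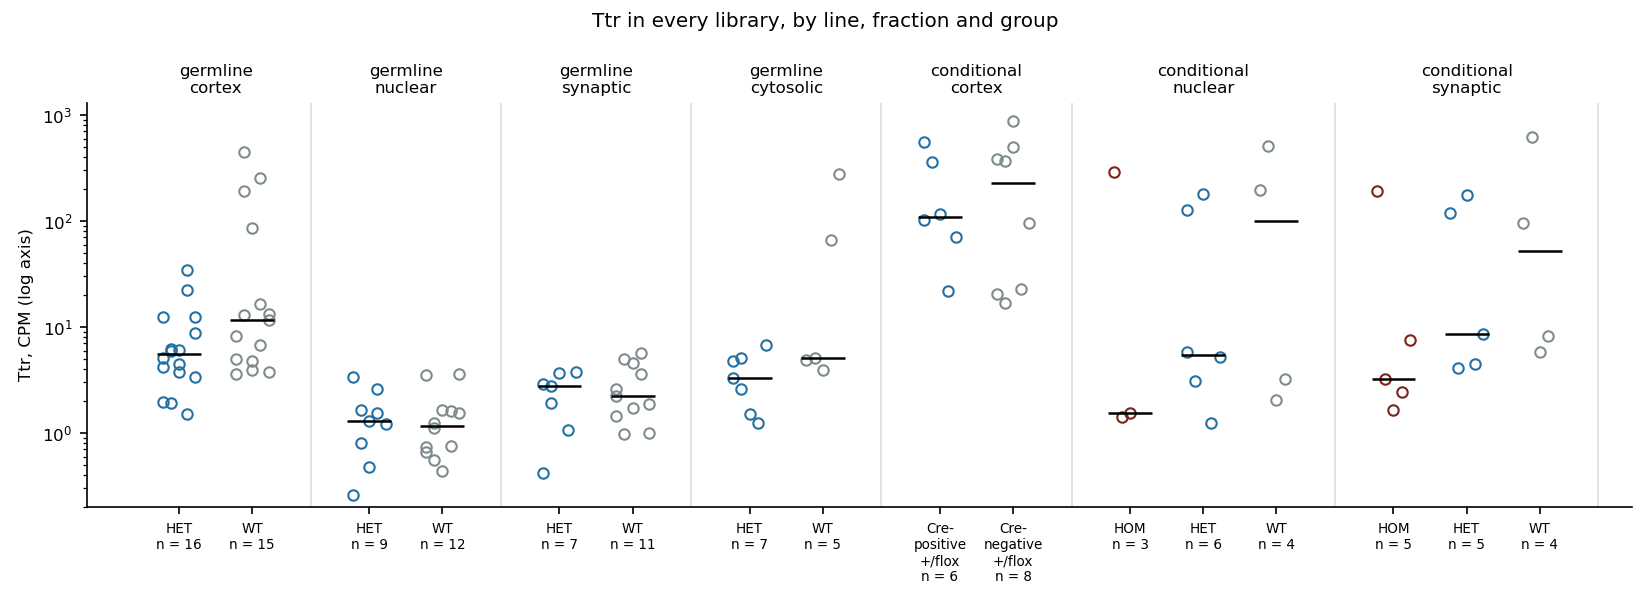
Ttr (CPM, log axis) in each of the 123 libraries, 1 point a library, by line, fraction and group, with the median of each group as a line. Libraries above 50 CPM occur in germline cortex and cytosol in WT groups, in conditional libraries in every group, and not in germline nuclear or synaptic libraries.

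The conditional fractions showed the same animals in both compartments. Nuclear and synaptic libraries of 13 conditional animals could be matched by the animal number in the library names. In 5 of them Ttr was high in both fractions: WT male 2 (616 CPM synaptic, 509 CPM nuclear), HOM male 1 (192 CPM synaptic, 292 CPM nuclear), HET male 2 (174 CPM synaptic, 182 CPM nuclear), HET female 1 (120.0 CPM synaptic, 126 CPM nuclear) and WT male 1 (96.7 CPM synaptic, 195 CPM nuclear). In every other library of these fractions Ttr was at most 8.60 CPM (synaptic) or 5.82 CPM (nuclear). The 5 animals comprised 1 HOM, 2 HET and 2 WT, and 4 of the 5 were male. The library of WT male 2 was the highest for all 10 genes in both fractions, for example with 38.4 CPM (synaptic) and 24.4 CPM (nuclear) of Kl, 6.53 and 5.23 CPM of Slc4a5 and 6.28 and 4.07 CPM of Folr1. Ttr, Kl, Folr1, Sostdc1 and Slc4a5 each had the same 5 animals at the top in both fractions, and the other 5 genes shared 4 of the 5.

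**Figure D4:**
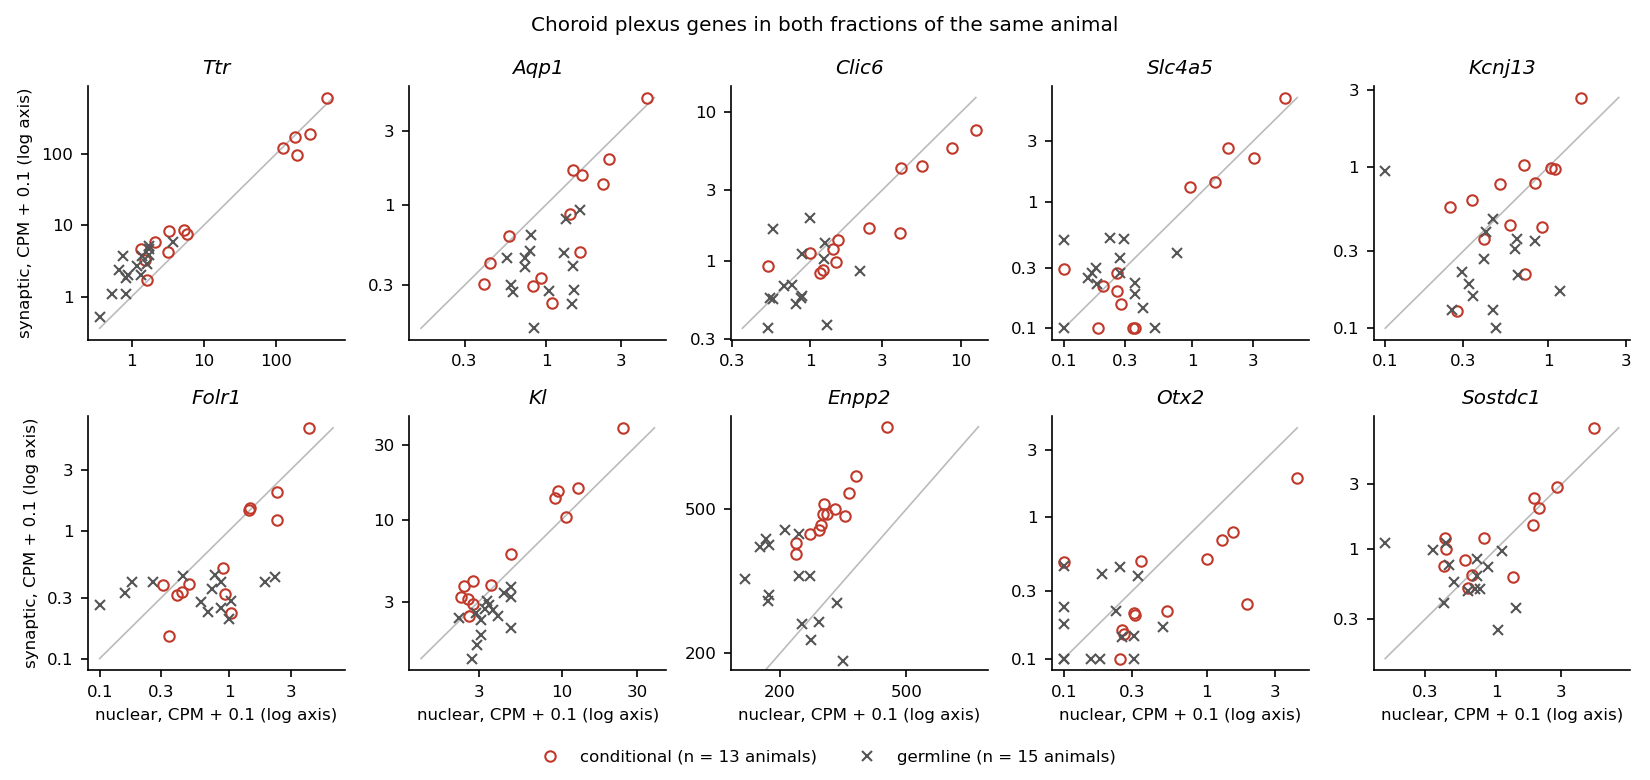
Synaptic against nuclear level of each choroid plexus gene (CPM + 0.1, both axes log) in the same animal, for 13 conditional and 15 germline animals, with a line of equal levels. Conditional animals with high Ttr are high in both fractions, and no germline animal exceeds 5.72 CPM of Ttr.

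Between conditional genotypes edgeR called 0 of the 10 genes in either fraction, as did DESeq2 for the 8 genes to which it gave an adjusted p (not Ttr and Slc4a5). In HOM against WT synaptic libraries Kl was 1.51 to 15.9 CPM (median 3.10) in HOM and 3.02 to 38.4 CPM (median 8.10) in WT, with a log2 fold change of -1.40 (SE 0.607, adjusted p = 0.923). Aqp1 (-1.73, SE 0.735), Kcnj13 (-1.71, SE 0.661) and Sostdc1 (-1.54, SE 0.570) likewise had an unadjusted p under 0.05, which makes 4 of 10, where 4.96% of all genes had such a p and 0% passed the adjusted threshold. With no filter on low counts 7 of 10 were called, all lower, where 0.302% of all genes were. All 10 genes were below 0 there, with a median of -1.62, and the groups hold 1 of 5 HOM and 2 of 4 WT libraries with high Ttr. In HOM against WT nuclear libraries 0 of 10 had an unadjusted p under 0.05, and the log2 fold change of Ttr was -0.87 (SE 1.54, adjusted p = 0.826). In HET against WT libraries 0 of 10 had an unadjusted p under 0.05 in either fraction. Ttr had a median of 5.50 CPM in HET and 99.1 CPM in WT nuclear libraries, and of 8.60 CPM in HET and 52.5 CPM in WT synaptic libraries. With sex in the fit its log2 fold change was nevertheless above 0, at 1.53 (SE 1.91, adjusted p = 0.951) in nuclear and 0.41 (SE 1.44, adjusted p = 0.995) in synaptic libraries. With genotype alone in the fit it was -1.67 (SE 1.45, adjusted p = 0.862) in nuclear and -1.58 (SE 1.33, adjusted p = 0.986) in synaptic libraries, so these libraries give no direction for Ttr in conditional HET mice. Both WT males and neither WT female had high Ttr, while 1 male and 1 female HET did. With no filter on low counts Ttr was the 1 gene of the 10 called in nuclear libraries, lower in HOM (-0.89, where 0.948% of all genes were called) and higher in HET (1.53, where 0.175% were). In the main edgeR fits of all of these comparisons 0% of all genes passed. Without the 5 animals with high Ttr, the log2 fold changes of Ttr were -0.67 (SE 0.670) for HOM and 0.64 (SE 0.541) for HET nuclear libraries, and -0.45 (SE 0.352) for HOM and 0.14 (SE 0.360) for HET synaptic libraries, with 0 of the genes called in each. These animals were left out for their Ttr itself, and all WT libraries that remain are female, so the fits rest on few libraries.

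Within animals, the 10 genes divided differently between synaptic and nuclear RNA. In 15 germline animals Ttr was higher in the synaptic library of all 15, with a log2 difference of 1.74 (SE 0.157, adjusted p = 3.49e-08). Enpp2 was higher in 11 of 15, with 1.03 (SE 0.161, adjusted p = 1.45e-05). Aqp1 was lower in all 15, with -1.04 (SE 0.284, adjusted p = 0.00267). These were 2 of 7 genes higher and 1 of 7 lower, where 36.7% of all genes were higher, 42% lower and 78.7% called in either direction, so most genes differ between the compartments. The remaining 4, Folr1 (-0.56), Clic6 (0.30), Sostdc1 (0.56) and Kl (-0.01), did not pass. By animal, the synaptic level was below the nuclear one in 11 of 15 for Folr1, 9 of 15 for Clic6, 9 of 15 for Sostdc1 and 14 of 15 for Kl, with median log2 differences in CPM of -1.12, -0.12, -0.19 and -0.44. For Clic6 and Sostdc1 the fit and the animals' median thus differ in sign. The fit is scaled by TMM and the animals' values by library totals, so the 2 are on different scales.

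In 13 conditional animals Enpp2 was higher in the synaptic library of all 13, with a log2 difference of 1.30 (SE 0.0540, adjusted p = 1.56e-15). Kl was higher in 11 of 13 (0.88, SE 0.0855, adjusted p = 2.17e-09), Ttr in 9 of 13 (0.83, SE 0.178, adjusted p = 0.000190) and Sostdc1 in 8 of 13 (0.82, SE 0.202, adjusted p = 0.000813). These 4 of 8 genes were called higher and 0 lower, where 38.3% of all genes were higher, 41.1% lower and 79.5% called in either direction. Animals were counted by CPM, while the fit is scaled by TMM. The animals' median log2 differences in CPM were 0.778 for Enpp2, 0.335 for Kl, 0.359 for Ttr and 0.326 for Sostdc1. Aqp1 did not pass in this line, with -0.19 (SE 0.236, adjusted p = 0.465). Without the 5 animals with high Ttr the same 4 genes were called, with Ttr at a log2 difference of 1.47 (SE 0.189, adjusted p = 2.55e-06), Enpp2 at 1.35, Sostdc1 at 1.01 and Kl at 0.85. These are values of the other 8 animals, and their difference from all 13 was not tested.

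The ratio of the other genes to Ttr differed between libraries and fractions. This was computed for the libraries with at least 50 CPM of Ttr in germline cortex, cytosol and the conditional fractions, over the median of all libraries of each, and not for conditional cortex, where 10 of the 14 libraries were that high. For each such library, 100 CPM of additional Ttr came in germline cortex with 30.1 to 78.0 CPM of Enpp2, 3.43 to 7.57 CPM of Kl, 1.39 to 5.51 CPM of Clic6, 0.640 to 1.83 CPM of Folr1 and 0.864 to 1.34 CPM of Aqp1 over 4 libraries. In the 5 conditional nuclear libraries it came with 3.12 to 4.86 CPM of Kl, and in the 5 conditional synaptic libraries with 5.68 to 10.1 CPM; these ranges did not overlap. For Aqp1 the same quantity was 0.0682 to 0.598 CPM in conditional nuclear, 0.481 to 1.12 CPM in conditional synaptic and 0.230 to 0.475 CPM in the 2 cytosolic libraries. For Slc4a5 it was 0.330 to 0.990 CPM in conditional nuclear and 1.05 to 1.45 CPM in conditional synaptic libraries. For Otx2 it was 0.323 to 0.826 CPM (median 0.673) in conditional nuclear and 0.0163 to 0.336 CPM (median 0.2505) in conditional synaptic libraries, and these ranges overlapped. The lowest of these, in the synaptic library of WT male replicate 1, rested on 6 counts of Otx2. The lowest nuclear value of Aqp1 rested on an excess of 0.0823 CPM. For Enpp2 it was 11.9 to 40.7 CPM in conditional nuclear and -2.47 to 82.1 CPM in conditional synaptic libraries.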

How the data were processed

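Poly(A) RNA of mouse cortex and of cortical fractions, separated with Syn-PER and NE-PER reagents, was sequenced. The authors deposited raw gene counts, which were used unaltered for 123 of the 127 labelled libraries, and the remaining 4, all cytosolic, were not analysed here. The submitters' processing notes name STAR 2.5.4b and featureCounts 2.0.0, while the table of conditional cortex was made with featureCounts 1.6.0 and Ensembl release 95, per the file headers, so levels are not compared across tables as tests. Of counts from 1 to 49, 61.5 to 78.6% were even, so mates may have been counted separately and 2 counts can be 1 fragment. No strand option is given in the sources used here. A Cre row (at most 0.00135% of a library) was left out of totals and tests. Of 54838 gene IDs, 54723 matched a symbol and 115 did not, and 16 libraries found in 2 tables with identical counts were used once. Libraries of 1 group always differed by more than sampling noise (lowest chi-square per gene 3.59). Nothing says more of how the libraries of a group were made than that they are biological replicates, so p-values measure the spread between these libraries.

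CPM is a count scaled to its library's total gene counts. Each comparison was fitted over all genes with edgeR 4.0.16 in R 4.3.3 (quasi-likelihood F test, TMM, filterByExpr, Benjamini-Hochberg at 0.05), with sex as a covariate, batch also in germline cortex and 3 groups of batch labels in germline nuclei and synaptosomes, and with animal as a block between fractions. SE is the log2 fold change over the square root of F. Scripts were tested on simulated data. Alternatives were DESeq2 1.42.0, voom with sample weights (limma 3.58.1), RLE scaling, no filter, genotype alone, a replicate block, choroid plexus covariates, single batches and leaving out libraries. Fits without libraries of at least 50 CPM of Ttr, with Ttr as a covariate, with totals over all genes, without the conditional libraries whose Cre or labels are in doubt and without the animal with differing sex markers were added after seeing the data. Figures were drawn with matplotlib 3.10.9.

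The numbers of replicates are shared by groups. Same-numbered libraries deviated together, with every correlation over 0.1, only for HET and WT of the conditional nuclear fraction (4 pairs, 0.219 to 0.289). These libraries come from different animals, and 2 of the 4 pairs were each other's best match. The values given for this comparison are from fits without a replicate block. With the block 0 of the genes were called, as without it. Between fractions, libraries were paired by the animal number that their names carry (15 germline and 13 conditional animals). For conditional cortex the protocol names WT animals where the titles name Cre-negative ones, and the titles were followed, so Cre and deletion cannot be told apart there.

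The genes, the marker lists and the tests were chosen with earlier results of these data known. Named were the 10 genes, Chd8, the 10 genes of average log2 CPM at least 0 most correlated with their mean, and the 2 genes with the smallest p of each list (other choroid plexus genes, ependyma, meninges, striatum, hippocampus, thalamus, oligodendrocyte, endothelium, nuclear-retained RNA and neuron). Haemoglobin genes and Malat1 were added after their values were seen.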

Additional observations from a re-analysis of the deposited data

Results flagged for a closer look

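In 150 groups of 4 to 10 libraries (a gene in a group of 1 genotype and fraction, split by batch in germline cortex only), 10 had a highest or lowest library set apart from the rest of its group by Dixon's criterion, which chance alone meets in about 1 in 20 groups. Within the WT libraries of batch CHD807, WT male replicate 3 had 194 CPM of Ttr, against 13.1 CPM in the next library, and 1.11 CPM of Slc4a5, against 0.267 CPM. In the HET libraries of the same batch, HET male replicate 4 had 0 CPM of Folr1, against 0.178 CPM in the next lowest. In the cytosolic fraction HET male replicate 2 had the lowest Sostdc1 of the HET group, 0.121 CPM against 0.302 CPM, and WT female replicate 3 had 4.17 CPM of Otx2, against 0.826 CPM in the next WT library.

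In the conditional synaptic fraction HOM male replicate 1, which also had high Ttr, stood apart from the other 4 HOM libraries in 4 genes. It had 1.87 CPM of Aqp1 (next 0.234 CPM), 5.62 CPM of Clic6 (next 1.10 CPM), 2.76 CPM of Sostdc1 (next 0.643 CPM) and 2.10 CPM of Slc4a5 (next 0.117 CPM). WT male replicate 2 had 843 CPM of Enpp2, against 499 CPM in the next WT synaptic library.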

How the results depend on the processing

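In germline cortex the 2 genes called, Aqp1 and Ttr, became 1 with voom, RLE scaling, genotype alone or the replicate block, and 0 with the mean of the other choroid plexus genes or Ttr as a covariate, within CHD80456 or CHD807 alone, and without the 4 libraries of at least 50 CPM of Ttr, where fewer libraries or a further term are in the fit. With 1 library left out they were 1 to 2. Aqp1 was not called with genotype alone (adjusted p = 0.0629), nor Ttr with voom (-1.44, adjusted p = 0.393) or RLE (adjusted p = 0.0521). With the replicate block Aqp1 was -1.72 (adjusted p = 0.0325) and Ttr -1.72 (adjusted p = 0.358), where same-numbered libraries correlated from -0.502 to 0.750 and so share only a number. Genes called were 1 rather than 0 in germline synaptic libraries with voom, 1 in cytosol with DESeq2 and 5 with no filter, 1 in each conditional nuclear comparison (Ttr, lower in HOM and higher in HET) and 7 in conditional synaptic HOM against WT with no filter. Between conditional fractions they were 2 rather than 4 without animal as a block, with sex and genotype in its place. Neither kind of block changed any other count over the 10 genes by over 1.5 times. Over all genes the replicate block gave 63 calls rather than 0 in cytosol, 36 rather than 57 in germline cortex and 0 rather than 3 in germline nuclei. No value of the 10 genes that was called in the main edgeR fit changed sign under any alternative run. Ttr in conditional nuclear HET libraries, called higher only with no filter, was below 0 with genotype alone. The cause of these changes was not tested. Of 475 alternative values 403 kept their call, or a count within 1.5 times that of the main fit. Depth limits Aqp1, Otx2, Folr1, Kcnj13, Sostdc1 and Slc4a5 in germline cortex, which had few counts in most libraries.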
